A study of Homo sapiens with 6 samples.

Results

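RARA, RARG and ALDH1A3 are 3 of 2128 genes listed with expression values for SNU668 cells, and were taken by gene name. RARA and RARG encode the retinoic acid receptors alpha and gamma, and ALDH1A3 encodes an enzyme that makes their ligand. SNU668 is an established human line of signet ring cell carcinoma of the stomach, profiled by RNA-seq of total RNA with a stranded mRNA kit. The 3 shGPER libraries are labelled as knockdown of GPER, the G protein-coupled estrogen receptor whose gene is GPER1, by short hairpin RNA. The 3 shControl libraries carry a control name in their titles but are labelled WT, so it is not certain that these cells held a hairpin. The labels do not say how many hairpins or clones were used, or whether each library had its own culture, so the spread between them may be technical.

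Retinol, which is vitamin A, is oxidised to retinaldehyde by retinol dehydrogenases and then to retinoic acid by the ALDH1A enzymes. Retinoic acid enters the nucleus and binds the retinoic acid receptors (RAR), which sit on DNA as pairs with retinoid X receptors (RXR). Without ligand the pair holds corepressors such as NCOR1, and with ligand it takes up coactivators and raises its target genes. CYP26 enzymes then break the ligand down. In epithelia, including that of the stomach, this pathway is known for control of differentiation and growth.

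Values are TPM, each gene's share of the transcripts of a library after correction for transcript length, so levels of different genes can be set side by side. The listed genes summed to 4.66 to 4.92% of the scaled total in shGPER libraries and to 6.12 to 6.42% in shControl libraries, so most of each library was not analysed here, and TPM keep no read depth. GPER1 stood at 1.83, 2.41 and 2.47 TPM in shGPER libraries and at 11.04, 11.00 and 10.41 TPM in shControl libraries, which leaves 20.7% of the control mean. The tables hold almost only genes that separate the groups. For 95.3% of the listed genes the groups did not overlap, with the shGPER libraries on top in 52.8% and underneath in 42.6%, and limma called 98.4% of the 1651 genes with at least 1 TPM in at least 3 libraries. Of 15 gastric epithelial markers the tables hold CDH1, at 0.11 to 0.42 TPM in shGPER and 0.44 to 0.71 TPM in shControl libraries, and TFF1, at 0.26 to 2.91 TPM in shGPER and 4.44 to 6.22 TPM in shControl libraries, so the labelled cell type could hardly be checked here. None of 6 leukocyte markers looked up is listed.

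RARA, RARG and ALDH1A3 were chosen on their TPM in this contrast of shGPER and shControl libraries, so their differences between the groups are described without a test. RARA (ENSG00000131759) lies on chromosome 17 at 40309192 to 40357643 on the plus strand, RARG (ENSG00000172819) on chromosome 12 at 53210567 to 53232980 on the minus strand, and ALDH1A3 (ENSG00000184254) on chromosome 15 at 100877714 to 100916626 on the plus strand (GRCh38, GENCODE release 29). The receptors are paralogs, but 0.397% of the 31-base words in RARA transcripts also occur in RARG transcripts. ALDH1A3 shares 1585 exonic bases with the antisense gene AC015712.2, and RARA shares 556 with RARA-AS1. The sources used here do not say whether counting used strand, so reads of these partners may be included.

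The annotated starts of the 3 genes are shown because RARA and RARG stood higher together while ALDH1A3 stood lower. A gene's TPM adds up all of its starts, and RARA has 3 in RefSeq (GRCh38.p14), against 1 each for RARG and ALDH1A3. RARA starts are numbered along the plus strand. Each line gives the 250 bases before a start, 5′ to 3′. Capitals mark the RAR core sequence AGGTCA and its variants, which are AGTTCA as well as GGTTCA and also GGGTCA, and in addition the GC box with the letters GGGCGG, each on either strand.
RARA, start 1, chr17:40308930-40309179, plus strand: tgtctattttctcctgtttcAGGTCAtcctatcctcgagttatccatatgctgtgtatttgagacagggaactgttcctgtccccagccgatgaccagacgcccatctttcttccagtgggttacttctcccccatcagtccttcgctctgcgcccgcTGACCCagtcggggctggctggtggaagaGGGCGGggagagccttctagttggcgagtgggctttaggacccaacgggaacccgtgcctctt
RARA, start 2, chr17:40317995-40318244, plus strand: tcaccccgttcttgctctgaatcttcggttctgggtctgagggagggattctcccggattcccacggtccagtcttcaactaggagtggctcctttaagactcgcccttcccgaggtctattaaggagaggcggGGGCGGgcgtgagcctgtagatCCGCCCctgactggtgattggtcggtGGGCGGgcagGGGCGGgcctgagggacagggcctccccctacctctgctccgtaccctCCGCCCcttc
RARA, start 3, chr17:40341916-40342165, plus strand: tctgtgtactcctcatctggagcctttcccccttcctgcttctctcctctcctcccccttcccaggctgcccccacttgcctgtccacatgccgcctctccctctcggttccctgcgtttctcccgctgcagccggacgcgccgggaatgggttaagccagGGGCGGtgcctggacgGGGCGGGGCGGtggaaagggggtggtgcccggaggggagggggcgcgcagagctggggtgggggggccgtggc
RARG, chr12:53232210-53232459, minus strand: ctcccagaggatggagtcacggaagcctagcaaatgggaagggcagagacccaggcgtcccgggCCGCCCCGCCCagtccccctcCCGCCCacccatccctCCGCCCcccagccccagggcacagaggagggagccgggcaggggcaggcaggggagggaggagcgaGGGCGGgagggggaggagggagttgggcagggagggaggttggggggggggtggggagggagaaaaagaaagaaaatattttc
ALDH1A3, chr15:100879581-100879830, plus strand: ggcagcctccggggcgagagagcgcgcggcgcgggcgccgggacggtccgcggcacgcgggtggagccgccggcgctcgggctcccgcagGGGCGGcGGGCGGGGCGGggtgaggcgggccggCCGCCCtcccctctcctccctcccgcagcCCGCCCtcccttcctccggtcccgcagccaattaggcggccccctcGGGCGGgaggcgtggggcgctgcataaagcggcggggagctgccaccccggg
The window of RARA start 1 holds AGGTCA 230 bases and GGGTCA, in reverse, 92 bases before the start (counted to the base farthest from it). The other 4 windows hold none of the 4 core sequences, which occur in 33.8% of 35116 annotated windows of the same length. No window of the members holds a pair of them as a direct repeat with 1, 2 or 5 bases between, and 0.0968%, 0.0313% and 0.074% of all windows do. GGGCGG occurs in all 5 windows, 1, 5 and 3 times at the RARA starts, 5 times at RARG and 6 times at ALDH1A3 (some copies adjoin or overlap by 1 base), and in 42.6% of all windows. That share is not matched for GC content. The members' windows have 56.4% (RARA start 1) to 82.4% GC (ALDH1A3), against a median of 58.0% over all windows. GGGCGG is thus found at the receptors and at the enzyme alike. These are matches of letters, not sites shown to be bound.

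RARA was at 15.09, 16.26 and 20.26 TPM in the shGPER libraries, against 6.06, 5.98 and 5.86 TPM in the shControl libraries. The shControl values are nearly equal, and the lowest shGPER value is above all of them. The means were 17.2 ± 2.71 TPM in shGPER cells and 5.97 ± 0.101 TPM in shControl cells (SD, n = 3 each), a ratio of 2.88 and a difference of 1.38 on the log2(TPM + 1) scale. RARA encodes the receptor that is most widely expressed among the RARs and that is fused to PML in acute promyelocytic leukaemia.

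RARG, the receptor best known from skin and other stratified epithelia, was at 21.19, 25.65 and 25.19 TPM in the shGPER libraries, against 4.42, 6.10 and 4.98 TPM in the shControl libraries. The groups do not overlap, and the gap between them is far wider than the spread within either. The means were 24.0 ± 2.45 TPM in shGPER cells and 5.17 ± 0.855 TPM in shControl cells (SD, n = 3 each), a ratio of 4.65 and a log2 difference of 2.02. Of the 1651 genes tested, RARG had the 27th highest log2 difference and RARA the 189th.

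ALDH1A3, which oxidises retinaldehyde to retinoic acid, went the other way. It was at 4.81, 6.32 and 5.63 TPM in the shGPER libraries, against 10.16, 9.73 and 9.38 TPM in the shControl libraries, again with no overlap. The means were 5.59 ± 0.756 TPM in shGPER cells and 9.76 ± 0.391 TPM in shControl cells (SD, n = 3 each), which is 57.3% of the shControl mean and a log2 difference of -0.71. Of the tested genes 44.5% had a lower value, and the median over all of them was -0.485, with quartiles of -0.992 and 1.11. ALDH1A3 was 736th from the lowest, and 849 genes were below 0, so most of the genes that fell had a larger difference.

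**Figure D1:**
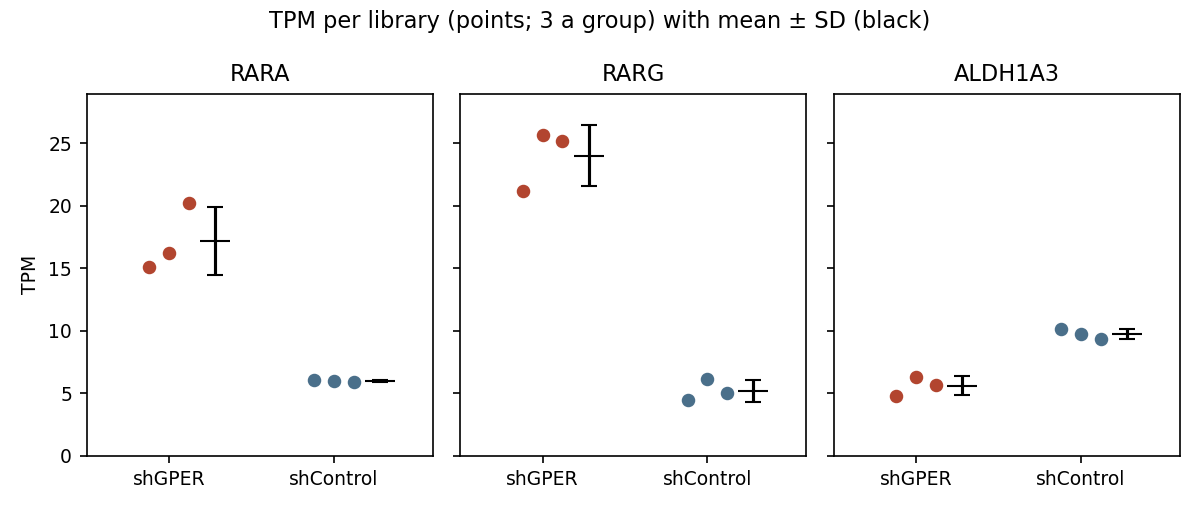
TPM of RARA, RARG and ALDH1A3 in each library (points), with the mean ± SD of the 3 libraries of a group beside them. The shGPER points lie above the shControl points for both receptors and below them for ALDH1A3.

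The order of the 3 genes turned over between the groups. In every shGPER library RARG was highest, RARA next and ALDH1A3 lowest, with no overlap between any pair of them. In every shControl library ALDH1A3 was highest, while the ranges of RARA (5.86 to 6.06 TPM) and RARG (4.42 to 6.10 TPM) overlapped, so those neighbours are not separated beyond their spread.

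Ratios of TPM + 1 between genes of the same library put the receptors against the enzyme, and the library total has less weight in them. The log2 ratio of RARA to ALDH1A3 was 1.47, 1.24 and 1.68 in the shGPER libraries, against -0.66, -0.62 and -0.60 in the shControl libraries. That of RARG to ALDH1A3 was 1.93, 1.86 and 1.98 in the shGPER libraries, against -1.04, -0.60 and -0.80 in the shControl libraries. Both ratios are above 0 in all shGPER libraries and below 0 in all shControl libraries, and the differences of the group means are 2.09 for RARA and 2.74 for RARG.

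In plain TPM, RARA and RARG together summed to 36.28, 41.91 and 45.45 TPM in shGPER libraries, against 10.48, 12.08 and 10.84 TPM in shControl libraries. That sum was 7.41 ± 0.728 times the level of ALDH1A3 in shGPER cells and 1.14 ± 0.106 times in shControl cells (SD, n = 3 each). The receptors also shifted relative to each other. RARG was 1.40, 1.58 and 1.24 times RARA in the shGPER libraries, against 0.729, 1.02 and 0.85 times in the shControl libraries. The shGPER library with the most RARA, replicate 3, is also the one with the lowest RARG to RARA ratio.

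**Figure D2:**
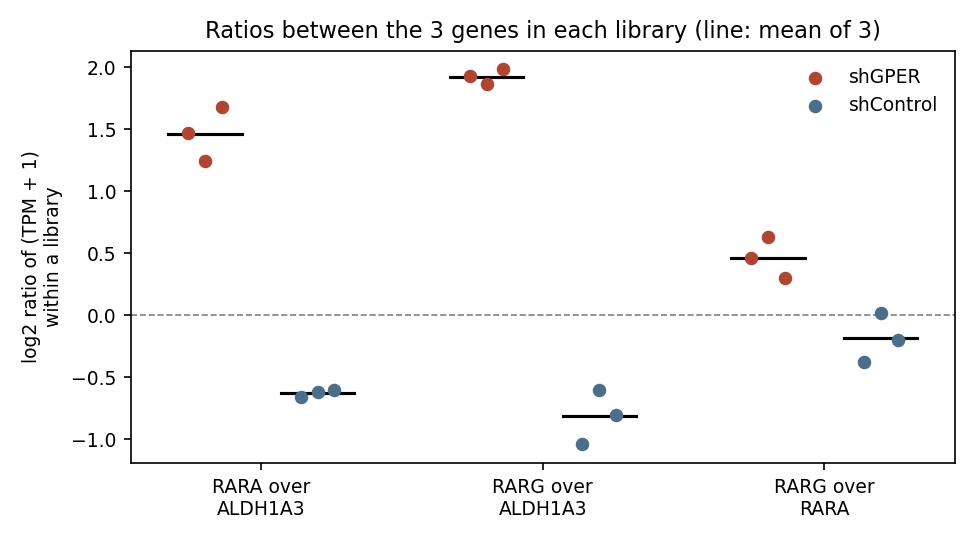
Log2 ratio of (TPM + 1) between pairs of the 3 genes within each library (points), with a line at the mean of each group of 3. Receptor to enzyme ratios are 1.24 to 1.98 in shGPER libraries and -1.04 to -0.60 in shControl libraries.

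Differences between the groups follow the base composition of the transcripts across the tables, and the members differ in it. The median GC content over annotated transcripts was 62.6% for RARA, 61.5% for RARG and 55.3% for ALDH1A3. The tested genes were put in 10 bins of equal size by GC content. In the bin that holds RARA, 90.1% of 162 genes had a positive log2 difference, with a median of 1.16, and in that of RARG 87.7% of 163 genes, with a median of 1.14. RARA was above the median of its bin, where 40 genes were higher and 121 lower, and 7 genes of the RARG bin were higher than RARG. In the bin that holds ALDH1A3, 44.8% of 163 genes had a negative difference and the median was 0.68.

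When the trend of each library with GC content was taken out, the log2 difference was 0.38 for RARA, 1.08 for RARG and -1.13 for ALDH1A3. The signs are kept, the receptor values shrink and that of the enzyme grows, and the receptor to enzyme differences become 1.51 and 2.21. Over all tested genes 31.5% were then called higher and 31.1% lower, 62.6% in all. The trend is estimated from these selected genes, so that taking it out may also remove a difference between the cells. What part of the members' differences goes with base composition was not tested.

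**Figure D3:**
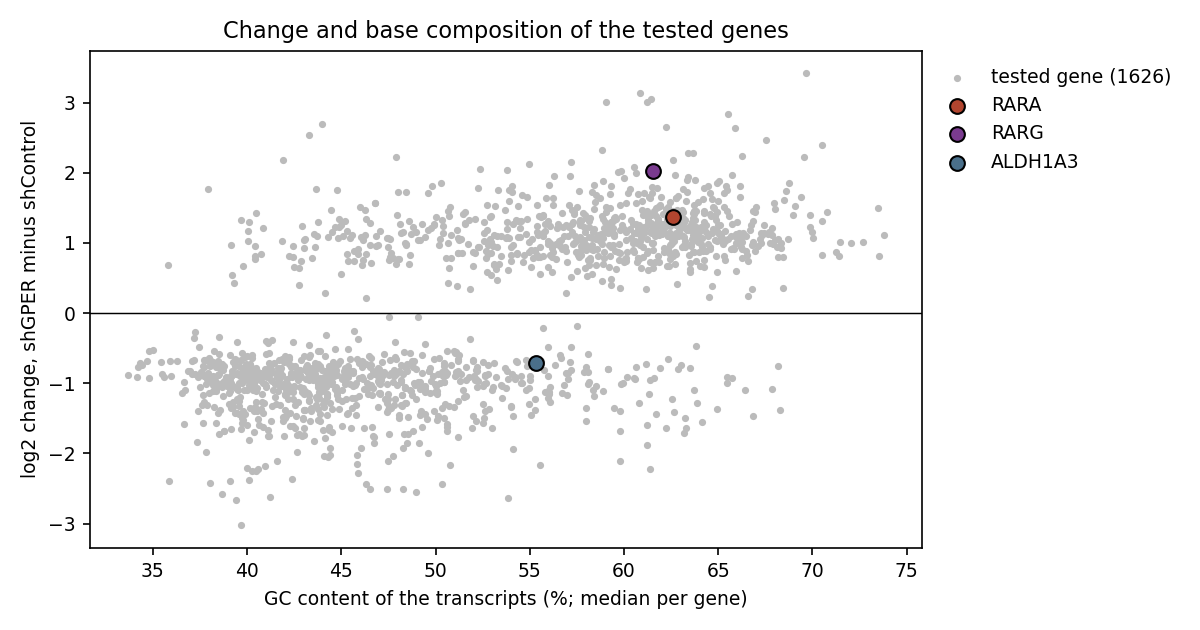
Log2(TPM + 1) difference, shGPER minus shControl, against the GC content of the transcripts for 1626 tested genes with a GC value (grey), with RARA, RARG and ALDH1A3 marked. RARA and RARG lie at 62.6% and 61.5% GC among genes that are mostly higher, and ALDH1A3 at 55.3% where both directions occur.

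The rest of the pathway is thinly held. Of 78 other genes of a retinoid list (receptors, synthesis, breakdown, binding, cofactors and target genes) the tables hold 10, of which 8 were tested, and 4 rose and 4 fell. For all tested genes limma called 47.8% higher and 50.6% lower at an adjusted p of 0.05, so an even split of 8 calls is close to the background. RDH5, HOXA5 and RBP7 reached 1 TPM in 3 libraries only with the help of the group in which they are higher. The median log2 difference of the 8 tested pathway genes was 0.0654, against -0.485 over all tested genes. RARB, RXRA, RXRB, RXRG and the 3 CYP26 genes were not analysed here, so the other receptors and the breakdown of the ligand cannot be described.

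Among enzymes of retinol and retinaldehyde, DHRS3 and RDH5 rose. DHRS3, which reduces retinaldehyde back to retinol and is itself a known retinoic acid target, was at 7.56, 9.72 and 8.33 TPM in shGPER libraries, against 2.40, 2.61 and 2.00 TPM in shControl libraries (log2 difference 1.51, SE 0.12; limma, adjusted p = 6e-06). RDH5, a retinol dehydrogenase of the visual cycle, was at 1.48 to 2.44 TPM in shGPER libraries and 0.28 to 0.64 TPM in shControl libraries (limma, adjusted p = 0.000843). It passed the filter through the shGPER group alone, which fixed its direction, and it lost its call without the GC trend (log2 difference 0.16). DHRS3 kept its call there (0.86). DHRS3 therefore rose in the libraries in which ALDH1A3 was lower.

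Of the binding proteins RBP7, a cellular retinol-binding protein, fell to 0.92, 1.63 and 1.18 TPM in shGPER libraries, against 1.66, 2.74 and 5.11 TPM in shControl libraries (log2 difference -0.82, SE 0.28; limma, adjusted p = 0.0199). RBP7 reached 1 TPM in 3 libraries only with the help of the shControl libraries, in which it is higher. The call was lost without shGPER replicate 1 (limma, adjusted p = 0.0729) and without the GC trend (limma, adjusted p = 0.0898). RBP5, at 0.77 to 1.30 and 0.40 to 0.69 TPM in the shGPER and shControl libraries, was too low to be tested.

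The 3 cofactors in the tables did not move one way. NCOR1, the corepressor held by RARs without ligand, fell to 14.09, 16.81 and 15.66 TPM in shGPER libraries, against 30.99, 31.93 and 34.63 TPM in shControl libraries (log2 difference -1.02, SE 0.08; limma, adjusted p = 5.6e-06). MED1, the Mediator subunit that contacts nuclear receptors, fell to 12.8 ± 0.786 TPM, against 22.5 TPM in shControl cells (limma, adjusted p = 2.04e-05). PRAME, a tumour antigen that binds RARs and represses retinoic acid signalling, rose to 23.47, 29.87 and 31.83 TPM in shGPER libraries, against 10.29, 11.81 and 11.41 TPM in shControl libraries (log2 difference 1.26, SE 0.12; limma, adjusted p = 1.18e-05). Without the GC trend NCOR1 stayed lower (-0.40), PRAME stayed higher (1.00) and MED1 lost its call (-0.10).

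Of 23 textbook target genes, 4 are listed and 3 were tested. DHRS3 rose as given above, and HOXA5, a homeobox gene induced by retinoic acid, rose to 3.79, 3.42 and 4.43 TPM in shGPER libraries, against 0.85, 1.07 and 1.57 TPM in shControl libraries (limma, adjusted p = 7.77e-05). RARRES1, named as a gene responding to RAR ligands, fell to 58.68, 51.65 and 59.62 TPM in shGPER libraries, against 100.14, 94.25 and 97.68 TPM in shControl libraries (log2 difference -0.77; limma, adjusted p = 8.86e-06). HOXA5 reached 1 TPM in 3 libraries only with the help of the shGPER libraries, in which it is higher. DHRS3 and RARRES1 reached that level in both groups and went opposite ways. HOXA5 kept its call without the GC trend (1.09) and RARRES1 did not (-0.15). CDX2, an intestinal homeobox gene, was too low to be tested, at 0.82 to 1.39 TPM in shGPER libraries and 0.30 to 0.47 TPM in shControl libraries.

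**Figure D4:**
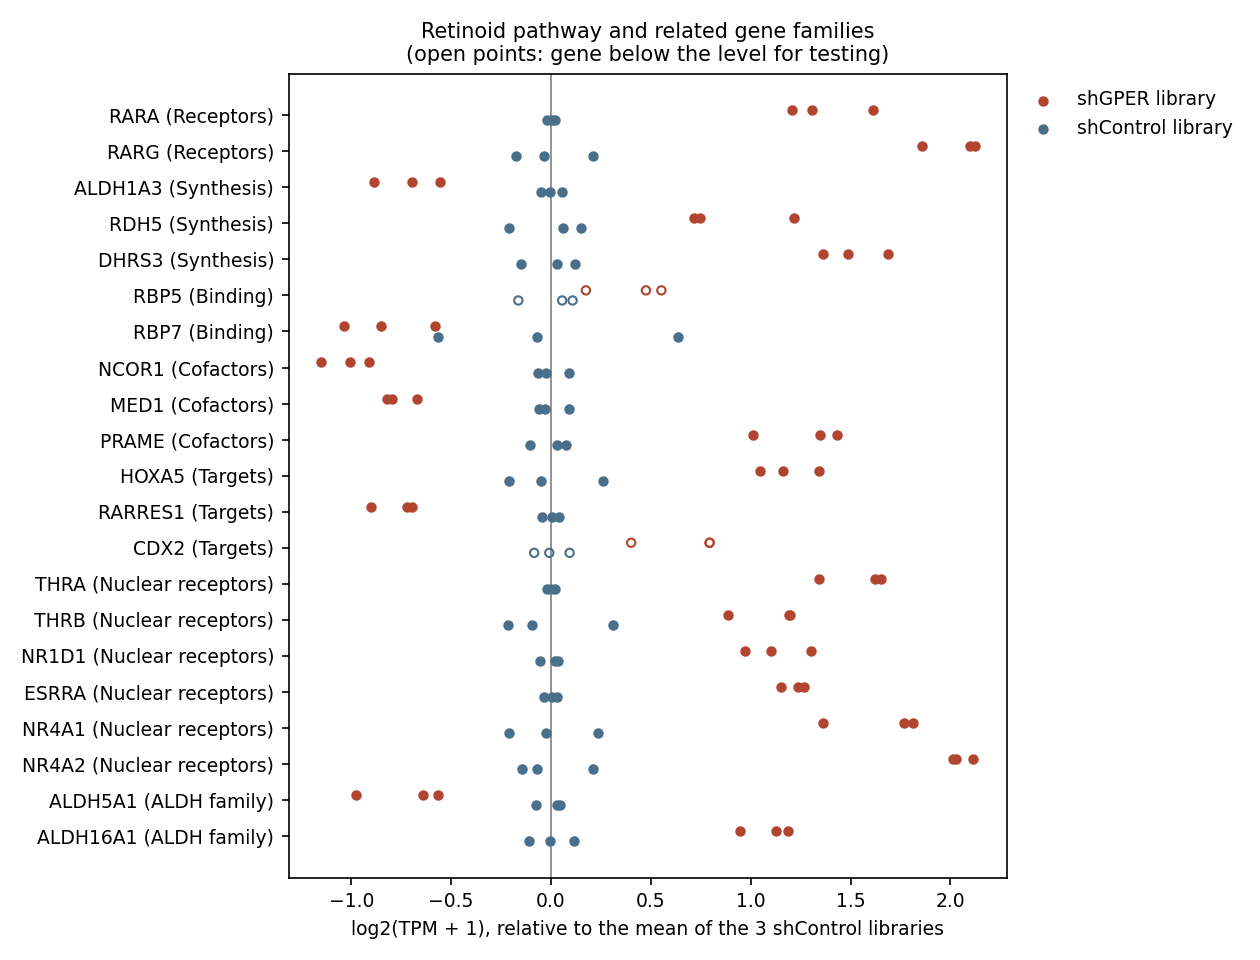
Log2(TPM + 1) of each library relative to the mean of the 3 shControl libraries, for the listed genes of the retinoid pathway, the nuclear receptors and the aldehyde dehydrogenases. All nuclear receptors lie to the right in shGPER libraries, and the enzymes, binding proteins, cofactors and targets lie on both sides.

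RARA and RARG belong to the nuclear receptor family, of which 6 of the 46 other genes are in the tables. All 6 rose, against 47.8% of all tested genes, with a median log2 difference of 1.38. All 6 were still called higher without the GC trend (median 0.70), against 31.5% of all tested genes. THRA, NR1D1, NR4A1 and ESRRA have 59.5 to 64.1% GC, in bins where 87.7 to 93.9% of genes had a positive difference. THRB and NR4A2 have 46.9% and 52.4% GC, in bins where 25.8% and 55.2% of genes had one. NR4A2, an orphan receptor that can pair with RXR, was at 18.9 ± 0.756 TPM in shGPER cells and 3.82 ± 0.643 TPM in shControl cells (SD, n = 3 each), and its relative NR4A1 at 14.4 and 3.90 TPM. THRA and THRB, the thyroid hormone receptors, were at 25.4 and 3.85 TPM in shGPER cells, against 8.07 and 1.29 TPM in shControl cells. ESRRA, the estrogen-related receptor alpha, was at 62.3 and 26.2 TPM, and NR1D1, the clock repressor REV-ERB alpha, at 10.8 and 4.38 TPM in shGPER and shControl cells. The adjusted p of these 6 genes ran between 4.31e-07 (ESRRA) and 0.000223 (THRB) by limma. THRB reached 1 TPM in 2 of the shControl libraries. It thus passed the filter only with the help of the shGPER libraries, in which it is higher, and the count of 6 includes it. The tables were already selected for separated genes, and the family's other receptors were not analysed here.

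Of 18 other aldehyde dehydrogenases, 2 are listed, and they went opposite ways. ALDH5A1, the succinate semialdehyde dehydrogenase, fell to 3.93, 5.23 and 5.56 TPM in shGPER libraries, against 8.21, 9.01 and 8.93 TPM in shControl libraries (log2 difference -0.73; limma, adjusted p = 0.000494). Without the GC trend its difference was -0.30 (limma, adjusted p = 0.0437). ALDH16A1 rose to 37.36, 42.40 and 44.38 TPM in shGPER libraries, against 17.43, 18.87 and 20.55 TPM in shControl libraries (limma, adjusted p = 5.74e-06), with no call without the GC trend (-0.01). ALDH1A1 and ALDH1A2, which also make retinoic acid, were not analysed here.

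Listed genes near the members on the chromosome were looked up as well. Within 500 kb of RARA on chromosome 17 the tables hold 4 further genes, and all 4 rose, where 47.8% of all tested genes did. These 4 genes have 59.5 to 73.8% GC, in bins where 87.7 to 93.9% of genes had a positive difference. GJD3, a connexin gene starting 54.6 kb away, was at 20.2 and 8.75 TPM in shGPER and shControl cells. IGFBP4, an insulin-like growth factor binding protein 134 kb away, was at 453 ± 32.0 TPM in shGPER cells and 166 ± 2.90 TPM in shControl cells (SD, n = 3 each). NR1D1 and THRA, given above, start 208 and 251 kb away. They overlap each other on opposite strands, so their values are not independent if counting did not use strand. After the GC trend was taken out, 3 of these 4 were called higher, against 31.5% of all tested genes, and GJD3 was not (0.02). The tables hold 1 gene within 500 kb of RARG, TNS2, a tensin of focal adhesions, which rose to 23.3 TPM, against 8.69 TPM in shControl cells, and none near ALDH1A3. TNS2 has 61.8% GC, in a bin where 90.1% of genes had a positive difference. Its log2 difference of 1.32 became 0.36 without the GC trend, and it was still called higher.

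The deposited annotation terms give another view of the pathway. Apart from the members, 27 genes carry a term that names retinoic acid, retinoids, retinol or vitamin A, and of 24 tested 13 rose and 11 fell, a split near that of all tested genes (47.8% higher, 50.6% lower). Of the 13, 4 reached 1 TPM in 3 libraries only with the help of shGPER libraries, and of the 11, 3 only with the help of shControl libraries. The median log2 difference of the 24 tested genes was 0.744, and 0.0611 without the GC trend. Of the 24, 9 were then called higher and 8 lower, against 31.5% and 31.1% of all tested genes. The row of RARA carries no such term, but holds the terms cellular response to estrogen stimulus and Estrogen signaling pathway. RARG carries 4 retinoid terms, among them the retinoic acid receptor signaling pathway.

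The other genes with the deposited term retinoic acid metabolic process, which ALDH1A3 carries too, differed in direction. CYP2S1 and UGT1A7 rose, and SCPEP1, a peptidase, fell. CYP2S1, a cytochrome P450 annotated with retinoic acid 4-hydroxylase activity, rose to 9.05, 10.57 and 12.48 TPM in shGPER libraries, against 4.40, 6.48 and 3.57 TPM in shControl libraries (limma, adjusted p = 0.000764; 0.13 and no call without the GC trend). UGT1A7, a glucuronosyltransferase whose later exons are shared with other UGT1A genes, was at 2.15 ± 0.25 TPM in shGPER cells and 0.88 TPM in shControl cells, and is 1 of the 4 that passed the filter through the shGPER libraries. SCPEP1, the retinoid-inducible serine carboxypeptidase, fell to 12.6 ± 1.82 TPM, against 24.2 TPM in shControl cells.

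Genes annotated as partners or regulators of the receptors are also in this set. TACC1, a coiled-coil protein annotated as binding both RAR and RXR, fell to 2.76, 4.18 and 2.89 TPM in shGPER libraries, against 9.30, 11.06 and 8.71 TPM in shControl libraries (log2 difference -1.33, SE 0.15; limma, adjusted p = 3.75e-05). EZH2, the histone methyltransferase annotated as a negative regulator of RAR signalling, fell to 11.1 ± 0.688 TPM, against 24.0 TPM in shControl cells. Both were still called lower without the GC trend, TACC1 at -0.87 and EZH2 at -0.29.

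The genes closest in pattern were found among 1458 tested protein-coding genes, by the root mean square difference of log2(TPM + 1) over the 6 libraries after each gene's mean was taken out. For RARA these were HCN2, a pacemaker channel (0.053), IRF7, an interferon regulatory factor (0.056), and JUP, plakoglobin (0.06). For RARG they were BICD2, a dynein adaptor (0.072), ADGRG1, an adhesion G protein-coupled receptor (0.091), and NR4A2 (0.097). For ALDH1A3 they were RNF121, a ubiquitin ligase (0.037), PIMREG, a mitotic regulator (0.054), and XXYLT1, a xylosyltransferase (0.058). IRF7 ran close to RARA in level too, with 14.78, 16.47 and 20.94 TPM in the shGPER libraries and 5.52, 5.68 and 5.98 TPM in the shControl libraries. RARA and RARG differed from each other by 0.358. That puts RARG at place 600 in the order of likeness to RARA, and RARA at place 159 in the order of likeness to RARG. Likeness over 6 libraries of 2 groups is mainly likeness in the group difference.

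The listed markers of other cell types, except ERG, did not overlap between the groups. The same held for 95.3% of all listed genes, so separation of a listed marker is close to the background. The 4 listed of 6 neuroendocrine markers summed to 64.18 to 65.27 TPM in shGPER libraries and to 6.82 to 7.41 TPM in shControl libraries. The 4 listed of 6 fibroblast markers summed to 31.87 to 33.2 TPM in shGPER libraries and 7.02 to 9.91 TPM in shControl libraries. COL1A1 makes up most of that sum, at 29.4 TPM in shGPER and 2.83 TPM in shControl cells, while DCN and LUM were called lower, at 1.36 and 1.20 TPM in shGPER cells, against 2.73 and 2.52 TPM in shControl cells. The 2 listed of 5 endothelial markers summed to 7.52 to 8.71 TPM in shGPER libraries and 2.09 to 2.52 TPM in shControl libraries. CDH5 carries that difference (7.29 and 1.63 TPM in shGPER and shControl cells), while ERG overlapped between the groups (1.01 and 0.737 TPM) and was not called. No marker among these was at 0 in every library of a group. In such bulk samples fewer cells of a kind and less RNA per cell cannot be told apart, and the part of these shifts in the members' values was not tested.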

How the data were processed

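The authors deposited TPM per gene, 1 table for each of 3 shGPER and 3 shControl libraries, grouped by title. Per the submitters' processing notes, RSEM, HISAT2 and fastp were used with hg38, and no version or order is listed; how the listed genes were selected and whether counting used strand are not given in the sources used here. Depth is unknown, since TPM keep no read counts, and no counting error is given.

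The members and gene lists were chosen with earlier results of these data known. The difference of shGPER minus shControl in log2(TPM + 1) was fitted by limma (version 3.58.1, R 4.3.3), with an intensity trend in the prior, on 1651 genes with at least 1 TPM in at least 3 libraries; fold changes of low genes are understated on this scale. P-values are two-sided, adjusted over all tested genes (Benjamini and Hochberg, threshold 0.05). The fit was tested on simulated data in which a minority of the genes were changed. In these data most genes were called, so that test does not bear on the share called here. Named genes are the members, GPER1, the listed genes of 8 lists and the 3 closest in pattern per member; neighbours and genes picked by deposited terms were chosen with their values in view.

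Positions, GC content (median over transcripts) and 31-base words come from GENCODE 29 (GRCh38; 2078 of 2128 identifiers matched), starts from RefSeq. The GC trend of a library was modelled on its departures from the mean of each gene (natural spline, 3 degrees of freedom). Other alternatives were leaving out each library, a replicate block, a robust prior, a prior without trend, quantile normalization, median centring, a filter of 5 TPM or none, and pseudocounts of 0.1 and 0.5.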

Additional observations from a re-analysis of the deposited data

How the results depend on the processing

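The members kept the sign of their difference under all 16 alternatives, but most of these could not change it. The filters, the priors and the replicate block leave a member's mean difference as it is. Other pseudocounts and leaving out 1 library cannot turn the sign where the groups do not overlap. Only median centring, quantile normalization and removal of the GC trend could have turned it. Removing the GC trend moved RARA to 0.38, RARG to 1.08, ALDH1A3 to -1.13, and the receptor to enzyme differences to 1.51 (RARA) and 2.21 (RARG). Under it 1018 of 1626 genes of the tables were called, 4 of 8 other retinoid pathway genes (3 higher, 1 lower) and 1 of 2 other aldehyde dehydrogenases. Median centring moved RARA to 1.53 and ALDH1A3 to -0.56, and shifted the median of all tested genes by 0.153; quantile normalization gave 1.55 and -0.57. A pseudocount of 0.1 gave 2.20 for RARG and ratio differences of 2.30 and 3.00. A filter of 5 TPM left 5 other pathway genes, all called, as were 1113 of the 1117 genes tested under it. Leaving out 1 library in turn gave 1.26 to 1.46 for RARA, 1.94 to 2.13 for RARG and -0.79 to -0.63 for ALDH1A3. The ratio differences were then 1.98 to 2.20 (RARA) and 2.62 to 2.85 (RARG). Of 8 other pathway genes 7 to 8 were called, beside 1607 to 1617 of 1651 tested genes. The cause of these shifts was not tested.

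Same-numbered libraries did not deviate together (correlations of 0.033, -0.087 and 0.013 across genes). With 3 libraries a group this does not settle whether they shared a culture or preparation, which the labels do not say. With the replicate block 1622 of 1651 genes were called, and 8 of 8 other pathway genes. Depth sets no limit that can be computed from TPM.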
